A study of Mus musculus with 45 samples.

Results

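Forelimb buds of CD1 mouse embryos were cultured for 24 h with 5 µM bisphenol AF (BPAF), the fluorinated analog of bisphenol A, or with the solvent dimethyl sulfoxide (DMSO), and the RNA of both groups was compared here. The comparison was chosen by treatment and time as labelled and uses 10 of the 45 libraries, 5 of each group. The series exposes limbs to 0, 1 or 5 µM BPAF for 3, 24 or 48 h, with 5 libraries in each of its 9 groups. Both groups came from embryos taken at gestation day 13, and both were kept in glass bottles of BGJb medium with salts, ascorbic acid and gentamycin under a gas rich in oxygen. The sample labels name BPAF, while the treatment text spells the compound out as bisphenol A. The forelimbs were pooled, and limbs of male and female embryos were cultured together, so that a library stands for a bottle of limbs and not for an animal. The labels do not say whether replicates of a group came from separate litters. The p-values set the difference between groups against the spread between these libraries.

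A limb bud of this age holds mesenchyme that condenses into cartilage, and the cartilage cells then mature in order. They divide, enlarge to hypertrophic chondrocytes that make type X collagen, and are replaced by bone. Muscle has another origin: precursor cells that enter the bud from the somites express Pax3 and Pax7, switch on the myogenic factors Myf5, Myod1 and Myog, and fuse into fibres with embryonic myosin and its partner proteins. Blood vessels, macrophages, nerve and skin cells complete the tissue.

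The 10 libraries held between 14901842 and 20800285 reads assigned to genes. The limb mesenchyme gene Prrx1 was read at 475 ± 33.6 CPM (SD, n = 5) in controls, while the hindlimb gene Pitx1 was at 3.51 ± 0.975 CPM. CPM are counts scaled to a common library size with the trimmed mean of M-values (TMM), except where they are called plain, which uses the total count. Control replicates 2 and 3 stood against the label of mixed sexes. They held 0.954 and 0.879 plain CPM of Xist, the RNA of the inactive X chromosome, while the other 8 libraries held 355 to 1281 plain CPM. The summed plain CPM of 4 Y-linked genes ran from 177 to 321 in controls and from 53.4 to 230 with BPAF, where replicate 5 was the lowest. Replicate 5 of both groups also held more haemoglobin reads, 0.251% and 0.253%, against 0.101% to 0.157% in the other 8. The part of sex and of blood in the results was not tested beyond leaving out these libraries and fitting the Y-linked level.

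At 24 h, 258 of 16433 genes passed edgeR's quasi-likelihood test at an adjusted p under 0.05, which is 1.57%. Of these, 78 were higher with BPAF (0.475% of the genes tested) and 180 were lower (1.1%). The median log2 fold change was 0.46 among the genes called higher and -0.65 among those called lower, and 7 (0.0426%) and 29 (0.176%) of them changed at least 2-fold. The median over all genes tested was 0.0019, so the scaling put the middle of the transcriptome at no change. The 5 BPAF libraries lay wholly above or wholly below the 5 control libraries for 68 of the 78 and 166 of the 180 genes, beside 1.52% and 2.08% of all genes tested in these directions and 3.6% in either. The calls rest on these same libraries, so this separation is not independent support for them. The plot of change against level shows the calls over a wide range of expression.

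**Figure D1:**
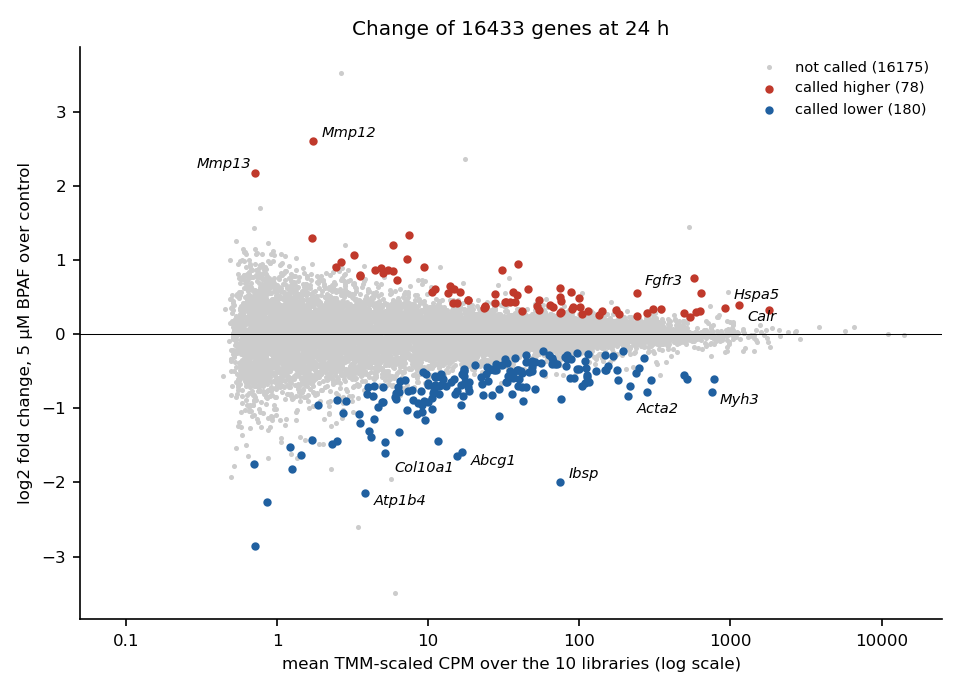
Log2 fold change of each of 16433 tested genes (vertical axis) against its mean TMM-scaled CPM over the 10 libraries (horizontal axis, log scale). Grey points were not called; the 78 red points were called higher and the 180 blue points lower with 5 µM BPAF; Mmp12 and Mmp13 stand highest among the called genes, at low levels, while Ibsp and Abcg1 fell at moderate levels.

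Without control replicates 2 and 3, which left 8 libraries, 64 genes were called, 10 higher and 54 lower. Of the 258 genes, 61 (23.6%) were still called, and all 258 kept their direction. The 258 were chosen on libraries that mostly stayed in this fit, so the kept direction is not independent support. The median log2 fold changes of the 78 and 180 genes were then 0.46 and -0.63, close to those with all libraries. Leaving out replicate 5 of both groups also left 8 libraries and gave 514 calls. The cause of this difference in calls was not tested. Leaving out single libraries gave from 109 calls (without BPAF replicate 1) to 500 (without BPAF replicate 5). In what follows, gene lists are read as counts of called members with these figures as the background, and 46 lists with 1126 matched entries were used. The lists and their members were chosen with earlier results of these data known. Their counts beside the share of all genes are therefore descriptions and not independent support.

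Contractile protein genes of skeletal muscle made the largest block of called genes among the lists. Of 41 measured sarcomere genes, 25 passed the test and all 25 were lower, beside 1.1% of all genes called lower. The median log2 fold change of the list was -0.61, and 40 of the 41 values were below 0. In bulk tissue, fewer muscle cells and less of these RNAs per cell cannot be told apart.

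Myh3 (ENSMUSG00000020908, chr11:67078300-67102291, plus strand of mm10) encodes embryonic myosin heavy chain, the main motor of the first fibres. It was read at 931, 1006, 955, 1000.3 and 849 CPM in control replicates 1 to 5 and at 553, 542, 588, 483 and 602 CPM in BPAF replicates 1 to 5. The highest BPAF library stayed well below the lowest control (log2 fold change -0.78 ± 0.07 (SE), edgeR adjusted p = 5.48e-05). Myom2 (chr8:15057653-15133541, plus strand) encodes M-protein, which links thick filaments at the M-band. Its control libraries held 38.2, 45.9, 38.3, 45.1 and 34.6 CPM and its BPAF libraries 18.1, 17.3, 18.7, 20.7 and 19.4 CPM (log2 fold change -1.10 ± 0.09 (SE), edgeR adjusted p = 4.49e-05). The groups did not overlap, and the BPAF libraries differed less among themselves than the controls did.

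Tnnt3, the fast troponin T that anchors the calcium switch on the thin filament, stood at 95.2, 97.5, 99.1, 102 and 95.01 CPM in controls. With BPAF it stood at 47.05, 49.6, 53.99, 48.7 and 66.03 CPM (log2 fold change -0.88 ± 0.08 (SE), edgeR adjusted p = 1.19e-04), with replicate 5 the highest of its group and still apart from the controls. The M-band gene Myom1 fell from 55.7 ± 9.24 to 29.8 ± 2.62 CPM (SD, n = 5 each; log2 fold change -0.90 ± 0.11 (SE), edgeR adjusted p = 8.23e-04). Mylpf, the fast regulatory light chain, fell from 356 ± 30.5 to 208 ± 33.2 CPM (log2 fold change -0.77 ± 0.10 (SE), edgeR adjusted p = 8.55e-04), and slow myosin Myh7 fell from 45.4 ± 4.15 to 25.9 ± 4.02 CPM (log2 fold change -0.81 ± 0.10 (SE), edgeR adjusted p = 0.001). Embryonic, slow and fast isoforms were thus all among the genes called lower. The summed CPM of the sarcomere list was 6519 to 7530 in controls and 4343 to 5559 with BPAF, again without overlap. The list had 13 calls without control replicates 2 and 3.

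**Figure D2:**
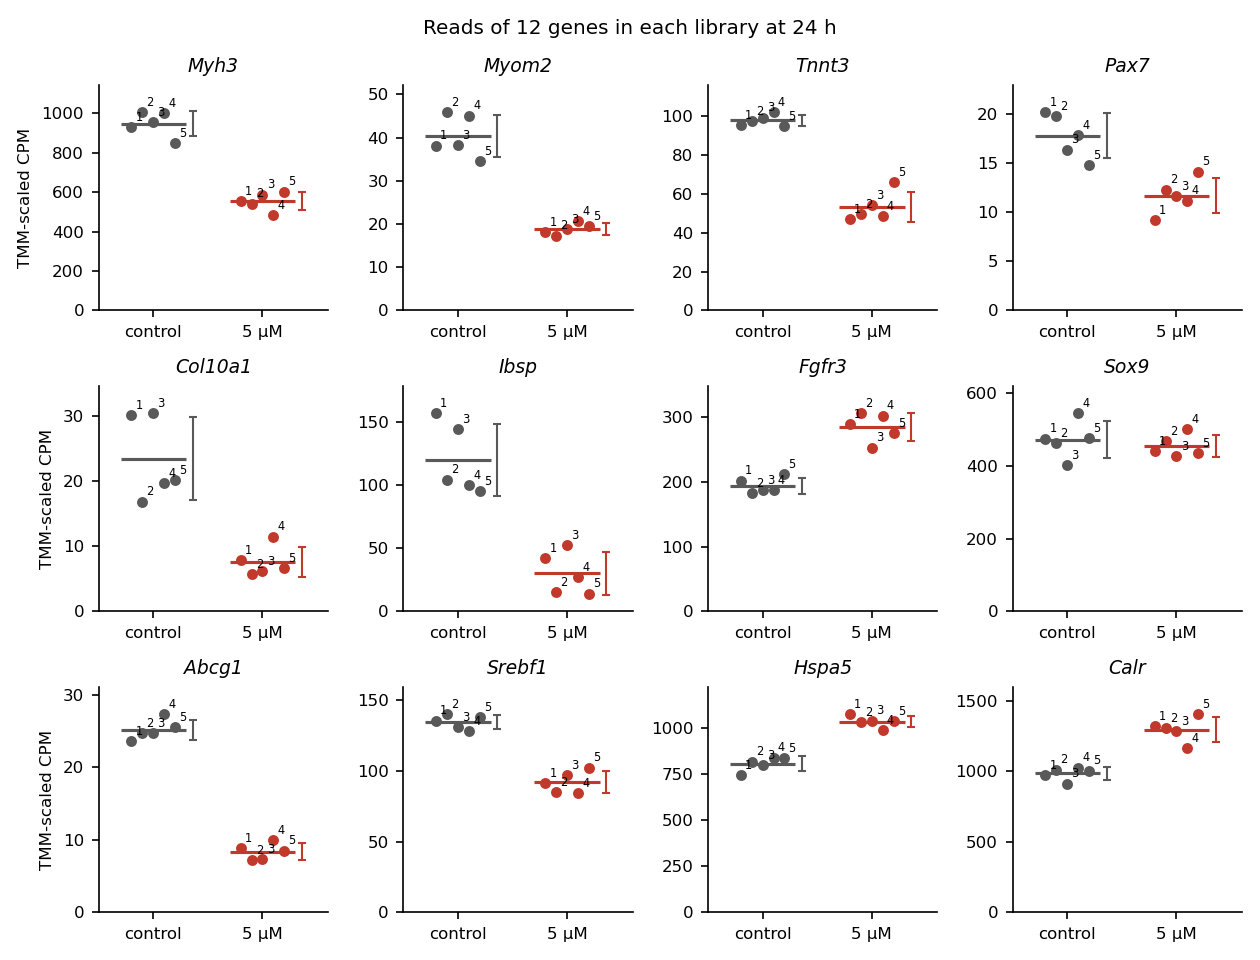
TMM-scaled CPM of 12 genes in each control (grey) and 5 µM BPAF (red) library at 24 h; numbers are replicate numbers, horizontal lines are group means and vertical bars are 1 SD (n = 5). The groups do not overlap for 11 of the 12 genes, and overlap for Sox9. The 11 were chosen from the called genes, so their separation is not independent support. Of all genes tested, 3.6% did not overlap.

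Myom1, Ldb3, Actc1 and Acta1 are the 4 called sarcomere genes with a CArG box, the site of serum response factor, in the RefSeq promoter (GRCm38.p6, 250 bases before to 50 after the start). They are printed 5′ to 3′ on the gene's strand because these genes fell together, with the box in capitals.
Myom1 (chr17:71019433-71019492, plus strand): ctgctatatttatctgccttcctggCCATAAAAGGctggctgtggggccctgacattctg
Ldb3 (chr14:34588682-34588741, minus strand): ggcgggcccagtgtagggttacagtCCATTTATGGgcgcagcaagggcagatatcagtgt
Actc1 (chr2:114052888-114052947, minus strand): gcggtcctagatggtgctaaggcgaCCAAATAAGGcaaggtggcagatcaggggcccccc
Acta1 (chr8:123894814-123894873, minus strand): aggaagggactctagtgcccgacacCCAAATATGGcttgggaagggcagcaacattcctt
The box was found on either strand in 4 of 21 called sarcomere genes with a promoter in the table and in 2 of 11 that were tested and not called (18.2% of these), against 1.81% of all 27025 promoters. The MEF2 box was found in 1 of the 21 (4.76%), in 1 of the 11 not called (9.09%) and in 0.636% of all promoters. These matches are descriptions of the letters in the window.

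Genes of muscle excitation and calcium handling were also lower: 7 of 31 were called and all 7 fell, with a list median of -0.32. Atp1b4, a muscle protein of the sodium pump beta-subunit family that sits in the inner nuclear membrane, had 7.74, 6.73, 6.15, 6.68 and 3.93 CPM in control replicates 1 to 5 and 1.202, 0.745, 2.13, 1.35 and 1.66 CPM with BPAF (log2 fold change -2.14 ± 0.26 (SE), edgeR adjusted p = 8.23e-04). It had the largest fall among called genes with a mean of at least 2 CPM. Casq2, a calcium-storing protein of the sarcoplasmic reticulum, fell from 104 ± 9.57 to 69.3 ± 3.43 CPM (log2 fold change -0.59 ± 0.07 (SE), edgeR adjusted p = 8.23e-04), and its relative Casq1 from 4.95 ± 1.07 to 2.15 ± 0.476 CPM (log2 fold change -1.20 ± 0.21 (SE), edgeR adjusted p = 0.00947). Sarcalumenin (Srl), junctophilin Jph2 and the sodium channel Scn4a fell by -0.50 ± 0.08, -0.50 ± 0.12 and -0.80 ± 0.19, given as signed log2 values with their SE. The edgeR adjusted p of these 3 were 0.0039, 0.0453 and 0.0462. The list had 4 calls when control replicate 1, 2 or 3 or BPAF replicate 1, 2 or 3 was left out, 3 without control replicates 2 and 3, and 13 without BPAF replicate 5.

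Muscle energy genes followed, with 5 of 13 called, all lower, and a median of -0.47. Pygm, the muscle glycogen phosphorylase, fell from 29.6 ± 3.16 to 16.7 ± 2.61 CPM (log2 fold change -0.82 ± 0.11 (SE), edgeR adjusted p = 0.00153). The muscle phosphoglycerate mutase Pgam2 (-0.73 ± 0.12), the muscle enolase Eno3 (-0.49 ± 0.09), the fatty acid carrier Fabp3 (-0.60 ± 0.11) and the heart and muscle cytochrome oxidase subunit Cox6a2 (-0.78 ± 0.17) had edgeR adjusted p of 0.00425, 0.0117, 0.0149 and 0.0268. The list had 3 calls without BPAF replicate 1 and 2 without control replicates 2 and 3.

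Of the 22 measured regulators of muscle formation, 7 were called and all 7 were lower, with a list median of -0.24. In the list 17 values were below 0 and 5 above. Pax3, Myod1 and Myog were not among the 7. Pax7 (chr4:139737062-139833528, minus strand), which marks muscle progenitors, was at 20.2, 19.7, 16.4, 17.8 and 14.8 CPM in control replicates 1 to 5 and at 9.18, 12.3, 11.6, 11.2 and 14.1 CPM with BPAF (log2 fold change -0.60 ± 0.12 (SE), edgeR adjusted p = 0.0236). Replicate 5 was the lowest control and the highest BPAF library, and the groups met there without overlapping. Myf5, the earliest determination factor, was at 11.7, 12.2, 10.4, 11.4 and 10.7 CPM in controls and 5.08, 6.65, 7.39, 7.54 and 6.38 CPM with BPAF (log2 fold change -0.77 ± 0.12 (SE), edgeR adjusted p = 0.0049). Its groups were clearly apart. Musculin (Msc, -0.77 ± 0.15), Mef2c (-0.46 ± 0.09), the stretch-responsive Ankrd2 (-1.63 ± 0.32) and myostatin (Mstn, -0.81 ± 0.17) were called too. Their edgeR adjusted p lay between 0.0165 and 0.0259. The remaining call was Heyl, given below with the Notch genes. The list had 1 call without BPAF replicate 1, 2 without control replicate 1 or 2, and 3 without control replicate 3 or 4 or BPAF replicate 3. Without control replicates 2 and 3 together edgeR called no member, against 7 by limma-voom and 8 by DESeq2 on all 10 libraries, and Pax7 had an adjusted p of 0.165 at a log2 fold change of -0.59.

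Other named genes outside these lists fell as well. Tceal7, a transcription elongation factor-like gene, went from 16.9 ± 1.97 to 6.22 ± 1.43 CPM (log2 fold change -1.43 ± 0.16 (SE), edgeR adjusted p = 4.87e-04). The actin-binding gene Ablim3 went from 141 ± 4.05 to 90.2 ± 12.1 CPM (log2 fold change -0.65 ± 0.08 (SE), edgeR adjusted p = 8.67e-04), and Gatm, the first enzyme of creatine synthesis, from 42.9 ± 2.37 to 29.5 ± 1.63 CPM (log2 fold change -0.54 ± 0.07 (SE), edgeR adjusted p = 0.001). The thin-filament capping gene Tmod1 fell by -0.68 ± 0.11 (signed log2 value, edgeR adjusted p = 0.00519).

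Cartilage showed a different picture, with change in few genes. Of 28 cartilage matrix genes, 1 was higher and 2 were lower, and the list median was -0.03. The cartilage master regulator Sox9 was at 475, 463, 401, 545 and 477 CPM in control replicates 1 to 5 and 439.7, 468, 426, 500.0 and 435 CPM with BPAF (log2 fold change -0.06 ± 0.08 (SE), edgeR adjusted p = 0.861). Its groups overlapped. Type II collagen Col2a1, from 6395 ± 471 to 6845 ± 240.3 CPM, and aggrecan (Acan), from 442 ± 32.4 to 452 ± 23.8 CPM, did not pass the test either, with log2 values of 0.10 ± 0.06 and 0.03 ± 0.06 and edgeR adjusted p of 0.548 and 0.929.

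Fgfr3 (chr5:33721674-33737068, plus strand), a receptor known to slow the division of growth plate chondrocytes, was the member that rose. It was at 202, 182, 188, 187 and 212 CPM in controls and 289, 306, 253, 302 and 275 CPM with BPAF (log2 fold change 0.55 ± 0.07 (SE), edgeR adjusted p = 8.23e-04). Every BPAF library was above every control. Scrg1, a cartilage-associated secreted protein, fell from 9.27 ± 1.29 to 5.43 ± 0.717 CPM (log2 fold change -0.77 ± 0.14 (SE), edgeR adjusted p = 0.0113). Ucma, a secreted protein of resting cartilage, was near the detection limit at 1.08 ± 0.5603 and 0.325 ± 0.158 CPM (log2 fold change -1.75 ± 0.41 (SE), edgeR adjusted p = 0.0479), and its call was lost in 15 of 20 alternative fits.

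Genes of hypertrophic cartilage moved in both directions. Of 22 measured, 4 were lower and 2 higher, and the list median was -0.11. Col10a1 (ENSMUSG00000039462, chr10:34389981-34397085, plus strand), the type X collagen that defines hypertrophic cells, was at 30.1, 16.9, 30.5, 19.7 and 20.2 CPM in control replicates 1 to 5. With BPAF it was at 7.87, 5.75, 6.21, 11.5 and 6.62 CPM (log2 fold change -1.64 ± 0.20 (SE), edgeR adjusted p = 8.55e-04). The controls ranged widely, with replicates 1 and 3 above the rest, yet the highest BPAF library stayed below the lowest control. Ibsp (chr5:104299171-104311469, plus strand), the bone sialoprotein of mineralizing cartilage and bone, was at 157, 104, 144, 99.9 and 94.8 CPM in controls and 41.9, 15.1, 52.5, 27.2 and 14.1 CPM with BPAF (log2 fold change -1.997 ± 0.30 (SE), edgeR adjusted p = 0.00295). The groups were apart, although the BPAF libraries spread from 14.1 to 52.5.

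Slc13a5, a citrate transporter used in mineral formation, fell from 9.14 ± 1.91 to 3.66 ± 0.853 CPM (log2 fold change -1.32 ± 0.19 (SE), edgeR adjusted p = 0.00233), and Mef2c, which drives hypertrophy as well as muscle, fell as given above. Without control replicates 2 and 3, Col10a1, Ibsp and Slc13a5 kept log2 values of -1.63, -1.96 and -1.36, with edgeR adjusted p of 0.0117, 0.0353 and 0.0228. Upstream factors did not pass the test: Runx2 had -0.18 ± 0.09, Runx3 -0.04 ± 0.09 and Ihh, the hedgehog ligand made by prehypertrophic cells, 0.05 ± 0.12, with edgeR adjusted p of 0.516, 0.938 and 0.936. Among 16 hedgehog and growth plate loop genes, 1 was called. That was Hhip, a hedgehog-binding inhibitor, which fell from 68.4 ± 8.55 to 47.5 ± 6.24 CPM (log2 fold change -0.53 ± 0.10 (SE), edgeR adjusted p = 0.0188), a call lost in 6 of 21 alternative fits.

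In the osteoblast list, 3 of 24 genes were lower and 1 higher, with a median of -0.03. Beside Ibsp, the collagen-associated Cthrc1 (-0.30 ± 0.05) and the sphingomyelinase Smpd3 (-0.51 ± 0.11), needed for bone mineral, were lower with edgeR adjusted p of 0.0096 and 0.0233. Osteomodulin (Omd) was higher, from 4.66 ± 0.815 to 7.74 ± 1.44 CPM (log2 fold change 0.73 ± 0.16 (SE), edgeR adjusted p = 0.0386), a call lost in 8 of 21 alternative fits. The list had 1 call, lower, without control replicates 2 and 3. The osteoblast factor Sp7 and type I collagen Col1a1 had -0.13 ± 0.10 and 0.05 ± 0.06, with edgeR adjusted p of 0.695 and 0.837.

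Of 30 matrix protease genes, 3 were called and all 3 were higher, beside 0.475% of all genes called higher. Mmp9, the gelatinase of bone-resorbing cells, was at 31.8, 29.8, 30.7, 26.3 and 27.1 CPM in controls and 44.3, 49.4, 42.6, 41.3 and 38.6 CPM with BPAF (log2 fold change 0.57 ± 0.08 (SE), edgeR adjusted p = 0.00262), with no overlap. Mmp12, the macrophage elastase, and the collagenase Mmp13 were scarce. Mmp12 had 0.5999, 0.617, 0.522, 0.532 and 0.171 CPM in controls and 4.32, 4.15, 2.84, 0.673 and 2.92 CPM with BPAF (log2 fold change 2.60 ± 0.44 (SE), edgeR adjusted p = 0.00697), with BPAF replicate 4 close to the controls. Mmp13 rose from 0.257 ± 0.151 to 1.18 ± 0.76995 CPM (log2 fold change 2.18 ± 0.49 (SE), edgeR adjusted p = 0.0389), and its call was lost in 10 of 20 alternative fits. The median of the whole list was 0.04, and it had 1 call without control replicates 2 and 3 and 5 without BPAF replicate 5.

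Targets of the liver X receptors, nuclear receptors that sense oxysterols and switch on cholesterol export, gave the smallest p-value of the comparison. Of 25 genes in the list, 4 were called and all were lower, and the list median was -0.09. Abcg1 (ENSMUSG00000024030, chr17:31057698-31115777, plus strand), which exports cholesterol from cells, was at 23.6, 24.7, 24.7, 27.3 and 25.5 CPM in control replicates 1 to 5 and at 8.85, 7.19, 7.33, 9.96 and 8.52 CPM with BPAF (log2 fold change -1.59 ± 0.10 (SE), edgeR adjusted p = 2.12e-06). Both groups were tight and far apart. Abca1, the second exporter, was at 134, 129, 136, 147 and 118 CPM in controls and 83.1, 88.4, 76.9, 112 and 62.9 CPM with BPAF (log2 fold change -0.65 ± 0.12 (SE), edgeR adjusted p = 0.0103). The BPAF libraries spread more widely here, and replicate 4 came near the lowest control.

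Srebf1, the lipid synthesis regulator that these receptors induce, fell from 135 ± 4.94 to 92.1 ± 7.61 CPM (log2 fold change -0.55 ± 0.07 (SE), edgeR adjusted p = 8.23e-04), and Mylip, which marks the low-density lipoprotein receptor for breakdown, from 81.6 ± 5.36 to 61.9 ± 5.53 CPM (log2 fold change -0.40 ± 0.07 (SE), edgeR adjusted p = 0.0122). The list had 4 or 5 calls whichever single library was left out. Without control replicates 2 and 3, Abca1 and Mylip missed the threshold at edgeR adjusted p of 0.113 and 0.129, with log2 values of -0.66 and -0.42. The cholesterol synthesis list, which sterol-regulated SREBF2 drives, had 0 of 25 called by edgeR and by limma-voom and 0 by DESeq2. At an unadjusted edgeR p under 0.05 there were 5, of which 4 were higher. With the replicate number as a block, edgeR called 3, all higher. Srebf2 was at -0.01 ± 0.06 and Hmgcs1, an early enzyme of the pathway, at 0.03 ± 0.07.

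Txnip, a thioredoxin-binding arrestin that lowers glucose uptake, and its relative Arrdc4 were the called members of a list of 7. Txnip was at 166, 159, 167, 198 and 202 CPM in controls and 133, 117, 126, 155 and 132 CPM with BPAF (log2 fold change -0.43 ± 0.09 (SE), edgeR adjusted p = 0.0207). The highest BPAF library lay just under the lowest control. Arrdc4 fell from 45.4 ± 3.85 to 32.5 ± 5.79 CPM (log2 fold change -0.48 ± 0.11 (SE), edgeR adjusted p = 0.0389). Both calls were lost when control replicate 4, BPAF replicate 1 or 2, or control replicates 2 and 3 together were left out.

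Chaperones and folding enzymes of the endoplasmic reticulum (ER) were the main group that rose. Of 32 measured, 7 were called and all 7 were higher, beside 0.475% of all genes, with a list median of 0.22 and 29 of 32 values above 0. The increases were small. Hspa5 (ENSMUSG00000026864, chr2:34771970-34777547, plus strand), the abundant chaperone BiP, was at 742, 816, 799, 838 and 834 CPM in control replicates 1 to 5 and 1072, 1031, 1037, 988 and 1035 CPM with BPAF (log2 fold change 0.36 ± 0.05 (SE), edgeR adjusted p = 0.00233). Calreticulin (Calr) was at 972, 1010.2, 913, 1025 and 1004 CPM in controls and 1317, 1304, 1286, 1165 and 1403 CPM with BPAF (log2 fold change 0.40 ± 0.06 (SE), edgeR adjusted p = 0.00256). For both genes the groups were apart.

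The chaperone Hsp90b1 rose from 529 ± 33.9 to 648 ± 30.2 CPM (log2 fold change 0.29 ± 0.06 (SE), edgeR adjusted p = 0.0207), the lectin calnexin (Canx) from 445 ± 22.9 to 541 ± 34.8 CPM (log2 fold change 0.28 ± 0.06 (SE), edgeR adjusted p = 0.0302) and the disulfide isomerase Pdia4 from 252 ± 22.4 to 307 ± 8.64 CPM (log2 fold change 0.28 ± 0.06 (SE), edgeR adjusted p = 0.0392). The co-chaperone Dnajc3 had 0.27 ± 0.06 (edgeR adjusted p = 0.0416). Derl3, part of the machinery that exports misfolded proteins from the ER, had 0.86 ± 0.20 at a low level (edgeR adjusted p = 0.0479), and its groups overlapped. The summed CPM of the list was 6740 to 7415 in controls and 8123 to 8590 with BPAF, without overlap. The list had 2 calls without control replicate 1, 2 or 3 or BPAF replicate 1 or 3, 3 without BPAF replicate 2 and 4 without BPAF replicate 4. Without control replicates 2 and 3 together, the 2 calls were Hspa5 and Calr, both at an edgeR adjusted p of 0.0487.

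The ER stress response element, searched on both strands as CCAAT and CCACG with 9 bases of any kind between them, is the site through which ATF6 with NF-Y is known to act. It was in the RefSeq promoters of 6 of the 7 called members (85.7%), in 3 of 18 that were tested and not called (16.7%), and in 37 of 27025 promoters (0.137%). The member that rose and lacked it in this window was Pdia4. The 3 uncalled genes with the element were Creld2, Pdia6 and Syvn1. The 6 sites in called members are shown. They are given 5′ to 3′ on the gene's strand (GRCm38.p6), with the element, in either orientation, in capitals.
Hspa5 (250 bases before the start, chr2:34771840-34772089, plus strand): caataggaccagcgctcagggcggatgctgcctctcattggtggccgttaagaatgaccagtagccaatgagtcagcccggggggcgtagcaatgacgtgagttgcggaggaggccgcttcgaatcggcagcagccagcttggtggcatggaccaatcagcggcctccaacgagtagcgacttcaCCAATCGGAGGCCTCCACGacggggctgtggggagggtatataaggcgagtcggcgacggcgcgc
Calr (chr8:84847050-84847118, minus strand): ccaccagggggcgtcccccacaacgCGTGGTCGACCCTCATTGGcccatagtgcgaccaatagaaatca
Hsp90b1, the first of 2 matches (chr10:86705613-86705681, minus strand): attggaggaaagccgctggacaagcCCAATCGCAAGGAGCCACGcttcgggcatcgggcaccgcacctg
Canx (chr11:50325775-50325843, minus strand): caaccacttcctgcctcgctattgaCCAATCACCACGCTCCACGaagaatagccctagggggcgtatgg
Dnajc3 (chr14:118937802-118937870, plus strand): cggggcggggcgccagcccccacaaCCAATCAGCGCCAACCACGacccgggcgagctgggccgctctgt
Derl3 (chr10:75893217-75893285, plus strand): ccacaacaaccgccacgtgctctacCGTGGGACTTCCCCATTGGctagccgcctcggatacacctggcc
The match began between 212 and 65 bases before the start. It ran in the gene's direction in Hspa5, Hsp90b1, Canx and Dnajc3, and the other way in Calr and Derl3. A match says what letters are in the window and does not show binding.

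Targets of ATF4, the factor of the amino acid and integrated stress response, rose in part. Of 40 measured, 6 were called and all were higher, with a median of 0.20 and 36 values above 0. Trib3, a pseudokinase that restrains this response, was at 9.18, 10.6, 8.41, 11.999 and 14.4 CPM in controls and 17.1, 16.1, 15.4, 20.7 and 16.6 CPM with BPAF (log2 fold change 0.65 ± 0.14 (SE), edgeR adjusted p = 0.0287). Atf5 was at 50.4, 51.3, 51.6, 62.95 and 76.3 CPM in controls and 95.4, 86.3, 71.1, 80.9 and 118 CPM with BPAF (log2 fold change 0.63 ± 0.14 (SE), edgeR adjusted p = 0.0316). Control replicate 5 was the highest control for both genes, and for Atf5 it lay above BPAF replicate 3, so those groups overlapped. The proline enzyme Pycr1, the amino acid transporters Slc7a1 and Slc7a5, and the stress sensor Sesn2 had 0.38 ± 0.07, 0.37 ± 0.08, 0.36 ± 0.08 and 0.43 ± 0.10, with edgeR adjusted p of 0.0149, 0.0353, 0.0453 and 0.0419. Without control replicate 1, 2 or 3, or 2 and 3 together, edgeR called no member, and without BPAF replicate 1 or 2 it called 1, while on all 10 libraries limma-voom called 6 and DESeq2 11.

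Of 30 target genes of p53, the guardian of DNA integrity, 4 were called and all were higher, with a median of 0.17. Cyclin G1 (Ccng1) was at 70.2, 65.7, 69.7, 76.96 and 74.3 CPM in controls and 126, 125, 91.01, 101 and 84.8 CPM with BPAF (log2 fold change 0.56 ± 0.10 (SE), edgeR adjusted p = 0.0123), and BPAF replicates 1 and 2 were the highest. Pmaip1, a trigger of cell death also called Noxa, was at 7.56, 6.45, 7.72, 6.38 and 4.61 CPM in controls and 13.4, 12.7, 16.1, 9.76 and 9.59 CPM with BPAF (log2 fold change 0.91 ± 0.17 (SE), edgeR adjusted p = 0.0134). The groups did not overlap for either gene. The death receptor gene Eda2r rose from 4.78 ± 0.924 to 9.64 ± 3.27 CPM (log2 fold change 1.01 ± 0.22 (SE), edgeR adjusted p = 0.0355), with BPAF replicate 5 inside the control range, and Sesn2 belongs to this list too. The list had 1 call without BPAF replicate 1, 2 without control replicate 1, 2, 3 or 4 or BPAF replicate 2, and 6 without control replicate 5 or BPAF replicate 3 or 5. EdgeR called no member without control replicates 2 and 3 together, while on all 10 libraries limma-voom called 3 and DESeq2 7.

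**Figure D3:**
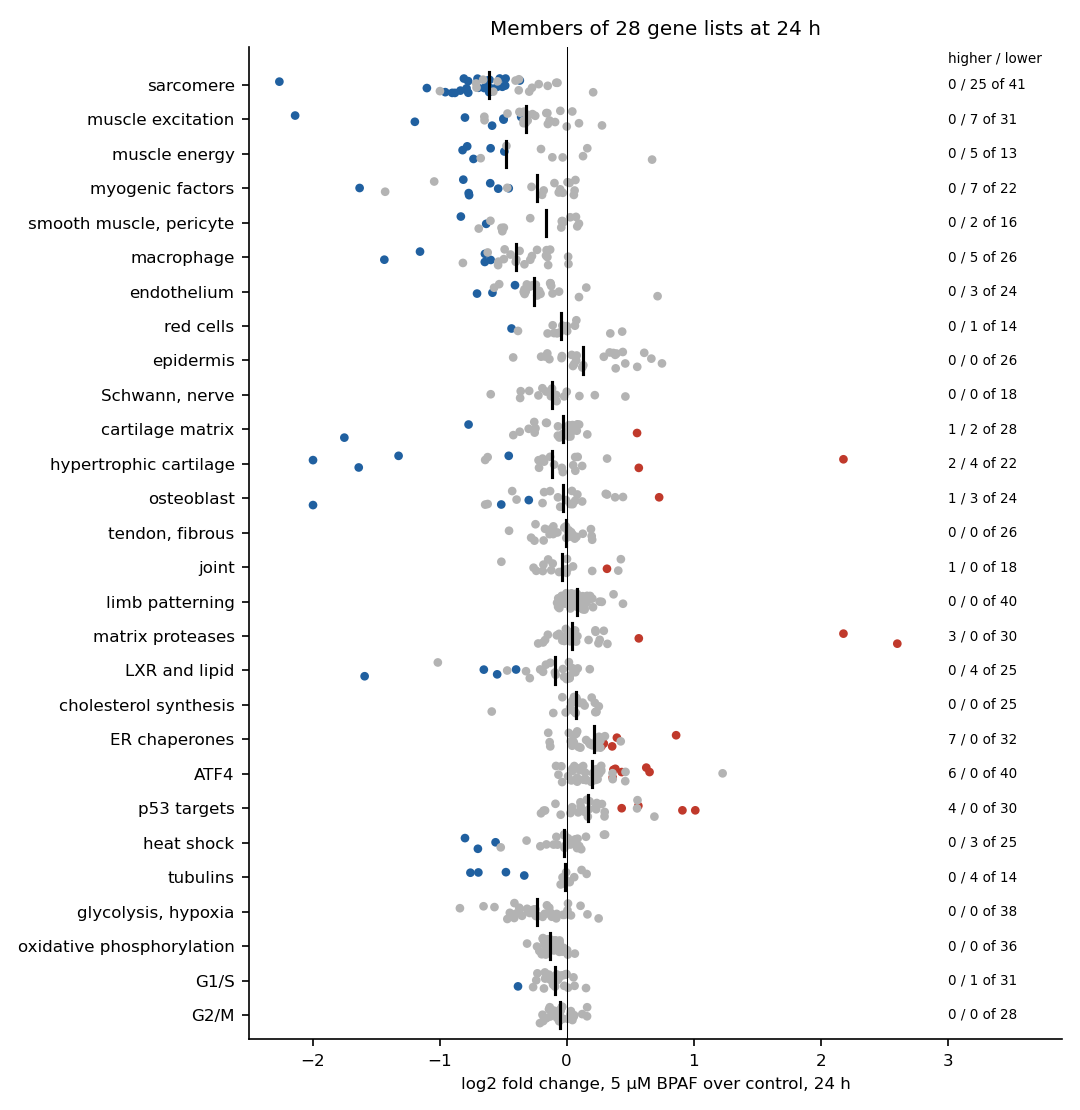
Log2 fold change of each measured member of 28 gene lists at 24 h, with members called higher in red, called lower in blue and not called in grey; black bars are list medians and the numbers at the right count the called members. The sarcomere values lie mostly below 0 with 25 of 41 called lower, and the ER chaperone values mostly above 0 with 7 of 32 called higher.

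Of 14 tubulin genes, 4 were called and all were lower. Tubb6 was at 115, 130.1, 126, 143 and 129.8 CPM in controls and 75.1, 69.8, 74.2, 73.6 and 105 CPM with BPAF (log2 fold change -0.70 ± 0.10 (SE), edgeR adjusted p = 0.00235). BPAF replicate 5 was the nearest to the controls. Tubb2b (-0.48 ± 0.09), Tuba4a (-0.76 ± 0.16) and Tubb2a (-0.33 ± 0.08) had edgeR adjusted p of 0.0132, 0.0263 and 0.0392, and the list median was -0.02. The list had 1 call without control replicate 4 or without control replicates 2 and 3 together, and 2 without control replicate 1, 2 or 3 or BPAF replicate 2 or 3.

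In the heat shock list, 3 of 25 genes were lower. They were the small heat shock proteins Hspb1 (40.5 ± 2.71 to 27.5 ± 5.06 CPM, log2 fold change -0.56 ± 0.11 (SE), edgeR adjusted p = 0.0183), Hspb2 (-0.80 ± 0.15, edgeR adjusted p = 0.0149) and alpha-B-crystallin, Cryab (-0.70 ± 0.14, edgeR adjusted p = 0.0223). All 3 are abundant in muscle as well as in stress. Without BPAF replicate 1, or control replicates 2 and 3, edgeR called no member, while limma-voom and DESeq2 each called 3 on all 10 libraries.

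Smooth muscle and pericyte genes had 2 of 16 called, both lower, with a median of -0.16. Smooth muscle actin Acta2, also made by early skeletal fibres, was at 239, 291, 268, 298 and 251 CPM in control replicates 1 to 5 and 129, 146, 148, 140.2 and 192 CPM with BPAF (log2 fold change -0.83 ± 0.10 (SE), edgeR adjusted p = 8.23e-04). BPAF replicate 5 was the highest of its group and stayed below every control. Synaptopodin-2 (Synpo2) fell from 30.1 ± 2.95 to 19.4 ± 2.57 CPM (log2 fold change -0.63 ± 0.10 (SE), edgeR adjusted p = 0.00542). The list had 1 call without control replicates 2 and 3, and 4 without BPAF replicate 5.

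Of 26 macrophage genes, 5 were called and all 5 were lower. The list median was -0.40, and 24 of the 26 values were below 0. Cx3cr1, the fractalkine receptor of tissue macrophages, was at 12.7, 8.02, 13.1, 15.4 and 16.3 CPM in controls and 5.08, 4.26, 7.39, 6.13 and 6.57 CPM with BPAF (log2 fold change -1.15 ± 0.19 (SE), edgeR adjusted p = 0.00542). The lowest control, replicate 2, came near the highest BPAF library. Lysozyme (Lyz2) fell from 39.997 ± 4.09 to 25.6 ± 4.69 CPM (log2 fold change -0.64 ± 0.12 (SE), edgeR adjusted p = 0.0117), the scavenger receptor Stab1 from 44.2 ± 4.45 to 29.2 ± 3.96 CPM (log2 fold change -0.60 ± 0.10 (SE), edgeR adjusted p = 0.00697), the growth factor receptor Csf1r from 21.5 ± 2.06 to 13.7 ± 3.35 CPM (log2 fold change -0.64 ± 0.14 (SE), edgeR adjusted p = 0.0339) and F13a1 from 3.62 ± 1.67 to 1.34 ± 0.497 CPM (log2 fold change -1.44 ± 0.34 (SE), edgeR adjusted p = 0.0483). The summed CPM of the list was 316 to 408 in controls and 208 to 324 with BPAF, so the groups overlapped slightly. The list had 3 calls without control replicate 1, 3, 4 or 5, BPAF replicate 1, 2 or 3, or control replicates 2 and 3 together, and 9 without BPAF replicate 5. Mmp12 and Mmp9, which rose, can also come from macrophages and osteoclasts, and the part of these cells in their change was not tested.

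Of 24 endothelial genes, 3 were lower, with a median of -0.26. The receptor Flt1 (-0.58 ± 0.11), the junction cadherin Cdh5 (-0.41 ± 0.08) and the lymphatic and vessel protein Mmrn1 (-0.71 ± 0.16) had edgeR adjusted p of 0.0165, 0.0198 and 0.037. Without BPAF replicate 1 edgeR called no member, and without control replicate 1 or 4, BPAF replicate 3, or control replicates 2 and 3 together it called 1, while limma-voom called 3 and DESeq2 5 on all 10 libraries. In the red cell list, the transferrin receptor Tfrc was the single call of 14, at -0.43 ± 0.10 (edgeR adjusted p = 0.0392), and it was lost in 9 of 21 alternative fits.

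In signalling lists the calls were isolated genes, and most depended on single libraries. Id2, a target of bone morphogenetic proteins that blocks differentiation factors, rose from 79.3 ± 5.67 to 99.8 ± 6.06 CPM (log2 fold change 0.33 ± 0.07 (SE), edgeR adjusted p = 0.0207), as the single call of 31. Among 22 FGF pathway genes, Fgfr3 rose and the feedback inhibitor Spry1 fell from 50.1 ± 3.86 to 38.6 ± 2.53 CPM (log2 fold change -0.38 ± 0.07 (SE), edgeR adjusted p = 0.0187). Dkk3, a secreted relative of Wnt inhibitors also found in joints, rose by 0.32 ± 0.07 (log2, edgeR adjusted p = 0.0233) as the single call of 29 Wnt genes. The Notch target Heyl, at -0.54 ± 0.13, and the retinaldehyde dehydrogenase Aldh1a3, at -0.68 ± 0.16, were the single calls of 19 and 17 genes (edgeR adjusted p = 0.0465 and 0.0465). Of 21 alternative fits, the call was lost in 6 for Id2, 6 for Spry1, 5 for Dkk3, 9 for Heyl and 10 for Aldh1a3, mostly by leaving out 1 library.

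Cyp1b1, a target of the aryl hydrocarbon receptor, was at 17.9, 20.6, 33.3, 21.1 and 16.6 CPM in controls and 48.7, 44.8, 42.5, 32.2 and 31.99 CPM with BPAF (log2 fold change 0.87 ± 0.17 (SE), edgeR adjusted p = 0.0197), as the single call of 10. Control replicate 3 lay inside the BPAF range. Cyclin E1 (Ccne1), which drives entry into DNA synthesis, was lower at -0.38 ± 0.08 (edgeR adjusted p = 0.0318) as the single call of 31 genes. The matricellular Ccn2 was lower at -0.33 ± 0.08 and the fatty acid importer of mitochondria Cpt1a at -0.28 ± 0.06, with edgeR adjusted p of 0.0419 and 0.0389. The call was lost in 7 of 21 alternative fits for Cyp1b1, in 10 for Ccne1, in 10 for Ccn2 and in 11 for Cpt1a.

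In 15 of the 46 lists edgeR called no member, and limma-voom called none in these either. With the replicate number as a block, edgeR called 655 of all 16433 genes. These included 5 epidermis, 4 tendon, 4 NRF2, 3 limb patterning and 3 glycolysis genes. That fit called 1 estrogen response gene and 0 of oxidative phosphorylation and of mitosis. DESeq2 called 556 of the 16433 genes. Of 40 limb patterning genes, 5 had an unadjusted p under 0.05, all higher, and DESeq2 called 3. The list median was 0.08, and Hoxd13 had 0.21 ± 0.06 and Prrx1 -0.02 ± 0.08. Of 38 glycolysis and hypoxia genes, 4 had an unadjusted p under 0.05, and DESeq2 called 0. Their median was -0.23 with all 10 libraries and 0.04 without replicate 5 of both groups, so its direction turned on those libraries. Of 36 genes of oxidative phosphorylation, 5 had an unadjusted p under 0.05, all lower, DESeq2 called 0, and the median was -0.13. In this list edgeR called 6 lower with the Y-linked covariate, 8 without replicate 5 of both groups and 9 without BPAF replicate 5 alone.

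Of 21 estrogen response genes, 5 had an unadjusted p under 0.05, DESeq2 called 2, and the median was -0.04. Of 28 NRF2 targets of the oxidative stress response, 8 had an unadjusted p under 0.05, 4 in each direction, and DESeq2 called 3. Of 28 mitosis genes, 2 had an unadjusted p under 0.05 and DESeq2 called 0, with Mki67 at 0.05 ± 0.07 and Top2a at -0.05 ± 0.06. Over all genes, 11.6% had an unadjusted p under 0.05.

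The naming rule also took called genes from outside the lists. Those that rose with small p-values were Tef, a clock-controlled transcription factor, from 83.3 ± 5.23 to 117 ± 4.89 CPM (log2 fold change 0.49 ± 0.06 (SE), edgeR adjusted p = 8.55e-04), carboxypeptidase M (Cpm), from 61.9 ± 4.72 to 87.5 ± 6.98 CPM (log2 fold change 0.50 ± 0.07 (SE), edgeR adjusted p = 0.00235), the collagen-folding isomerase of the ER Fkbp14, from 88.8 ± 1.53 to 114 ± 5.94 CPM (log2 fold change 0.37 ± 0.06 (SE), edgeR adjusted p = 0.00313), and Tmem44, from 31.7 ± 3.34 to 45.5 ± 2.92 CPM (log2 fold change 0.52 ± 0.08 (SE), edgeR adjusted p = 0.00392). Larger rises were seen in scarce genes. Gpr50, a melatonin receptor relative, went from 3.54 ± 1.64 to 8.13 ± 2.34 CPM (log2 fold change 1.20 ± 0.28 (SE), edgeR adjusted p = 0.0436), and Unc13c, a synaptic vesicle priming gene, from 2.098 ± 0.555 to 4.39 ± 1.03 CPM (log2 fold change 1.06 ± 0.23 (SE), edgeR adjusted p = 0.0324). The somatostatin receptor Sstr2 (0.97 ± 0.23), the protocadherin Pcdhb5 (0.90 ± 0.19), the glycosyltransferase Mgat5b (0.89 ± 0.18), Scml4 (0.87 ± 0.20), Ppp1r1b (0.85 ± 0.18) and Tmem132b (0.83 ± 0.18) had edgeR adjusted p between 0.0233 and 0.0462.

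Among the named genes that fell, Ddc, the decarboxylase of dopamine and serotonin synthesis, was at 10.98, 13.1, 12.6, 12.4 and 12.4 CPM in controls and 4.75, 6.01, 7.33, 5.72 and 5.79 CPM with BPAF (log2 fold change -1.06 ± 0.12 (SE), edgeR adjusted p = 8.23e-04). Its groups were widely apart. The potassium channel Kcnj15 fell from 7.57 ± 1.12 to 2.77 ± 0.601 CPM (log2 fold change -1.45 ± 0.18 (SE), edgeR adjusted p = 8.55e-04), choline dehydrogenase (Chdh) from 6.07 ± 0.906 to 2.33 ± 0.337 CPM (log2 fold change -1.38 ± 0.17 (SE), edgeR adjusted p = 8.55e-04), the arginine deiminase Padi2 from 5.79 ± 0.715 to 2.34 ± 0.498 CPM (log2 fold change -1.31 ± 0.19 (SE), edgeR adjusted p = 0.00206) and Sypl2, a protein of muscle calcium stores, from 7.78 ± 2.01 to 2.54 ± 0.8097 CPM (log2 fold change -1.60 ± 0.23 (SE), edgeR adjusted p = 0.00233). Atcayos, read as an antisense gene, had -1.48 ± 0.30, and reads of overlapping genes may not be separable here because the counting by strand is not given in the sources used here.

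The effect of 5 µM BPAF was then set beside 3 h and 48 h, for which other libraries were used. At 3 h 30 of 16651 genes were called (0.18%), 19 up (0.114%) and 11 down (0.0661%). The 48 h libraries gave 1171 calls of 16345 (7.16%), with 448 up (2.74%) and 723 down (4.42%). Of the 78 genes called higher at 24 h, 58 (74.4%) were called higher at 48 h, where they made 12.9% of 448 such calls. Of the 180 called lower, 158 (87.8%) were called lower at 48 h, or 21.9% of 723 such calls. The genes called lower at 24 h had a median log2 fold change of -0.93 at 48 h, further from 0 than at 24 h, while those called higher had 0.42. At 3 h, 6 of the 78 and 4 of the 180 were called in the same direction, which is 31.6% and 36.4% of the 3 h calls of that direction.

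The muscle lists separated the times. Of 41 sarcomere genes edgeR called 0 at 3 h, where 4 had an unadjusted p under 0.05, all higher, and the list median was 0.03. The share of all genes under that unadjusted p at 3 h was not counted, so the 4 have no background here. At 48 h 39 of 42 sarcomere genes were called lower, and the list median was -1.22. The difference between the effects at 24 h and at 3 h was tested directly and called 59 of 17535 genes (0.336%), 48 lower (0.274%) and 11 higher (0.0627%), of which 13 were sarcomere genes, all lower. The difference was -1.24 ± 0.14 (SE), edgeR adjusted p = 5.75e-05 for Myom2, -0.88 ± 0.10 (SE), edgeR adjusted p = 5.75e-05 for Myh3, and -0.86 ± 0.13 (SE), edgeR adjusted p = 0.00129 for Acta2. Gatm and Ablim3 had -0.65 ± 0.09 (SE), edgeR adjusted p = 2.79e-04, and -0.73 ± 0.11 (SE), edgeR adjusted p = 0.00136. For Myom1 it was -1.10 ± 0.13 (SE), edgeR adjusted p = 9.98e-05.

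The effects at 48 h and 24 h differed in 12 of 17315 genes (0.0693%), with 11 lower (0.0635%) and 1 higher (0.00578%) at 48 h than at 24 h. Pax7 fell further, from -0.60 ± 0.12 at 24 h to -1.99 ± 0.13 at 48 h (difference -1.38 ± 0.18 (SE), edgeR adjusted p = 8.50e-04). Myh7b, a slow myosin-related gene, had -0.66 ± 0.19 at 24 h with an edgeR adjusted p of 0.114, and -2.65 ± 0.17 at 48 h (difference -1.97 ± 0.28 (SE), edgeR adjusted p = 0.00263). Xirp1, which marks forming and stressed muscle ends, had -0.64 ± 0.14 and -1.93 ± 0.17 (difference -1.28 ± 0.22 (SE), edgeR adjusted p = 0.0247), and Tmod1 had -0.68 ± 0.11 and -1.76 ± 0.14 (difference -1.07 ± 0.18 (SE), edgeR adjusted p = 0.0243). The same tests of Rgs5, a pericyte gene, and Frem2, a basement membrane gene of skin, gave differences of -1.26 ± 0.22 (SE), edgeR adjusted p = 0.0275, and -0.80 ± 0.14 (SE), edgeR adjusted p = 0.0275, and neither was called at 24 h (-0.49 ± 0.16 and -0.28 ± 0.09).

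Other groups were present early. Of 32 ER chaperone genes, 8 were called higher at 3 h and 18 at 48 h, with medians of 0.21 and 0.28, next to 7 and 0.22 at 24 h. Hspa5 had 0.40 ± 0.06 at 3 h, 0.36 ± 0.05 at 24 h and 0.43 ± 0.06 at 48 h. Abcg1 had -0.79 ± 0.11 at 3 h, -1.59 ± 0.10 at 24 h and -1.79 ± 0.17 at 48 h, and its effect at 24 h exceeded that at 3 h (difference -0.78 ± 0.15 (SE), edgeR adjusted p = 0.0136). Abca1 had -0.49 ± 0.08, -0.65 ± 0.12 and -0.67 ± 0.10 at these times, and Txnip -0.51 ± 0.06, -0.43 ± 0.09 and -0.42 ± 0.07. All of these had an edgeR adjusted p under the threshold at each time.

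Col10a1 had 0.01 ± 0.19 at 3 h and -1.17 ± 0.34 at 48 h, and its effect at 24 h differed from that at 3 h (-1.63 ± 0.30 (SE), edgeR adjusted p = 0.00922). Ibsp had -0.84 ± 0.57 at 3 h, where it was not called, and -1.34 ± 0.23 at 48 h, with an edgeR adjusted p of 9.46e-04. Fgfr3 had 0.05 ± 0.06 and 0.48 ± 0.09 (difference between 24 h and 3 h 0.52 ± 0.09 (SE), edgeR adjusted p = 0.00512). Mmp9 had -0.04 ± 0.12 and 0.27 ± 0.13, and was called at neither of these times. The p53 target Ccng1 had -0.03 ± 0.06 at 3 h and 0.70 ± 0.11 at 48 h. At 48 h 17 of 30 p53 targets and 23 of 40 ATF4 targets were called higher. At 3 h edgeR called 0 in both lists, and 5 ATF4 and 0 p53 targets had an unadjusted p under 0.05. These unadjusted counts again have no share of all genes at 3 h beside them.

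**Figure D4:**
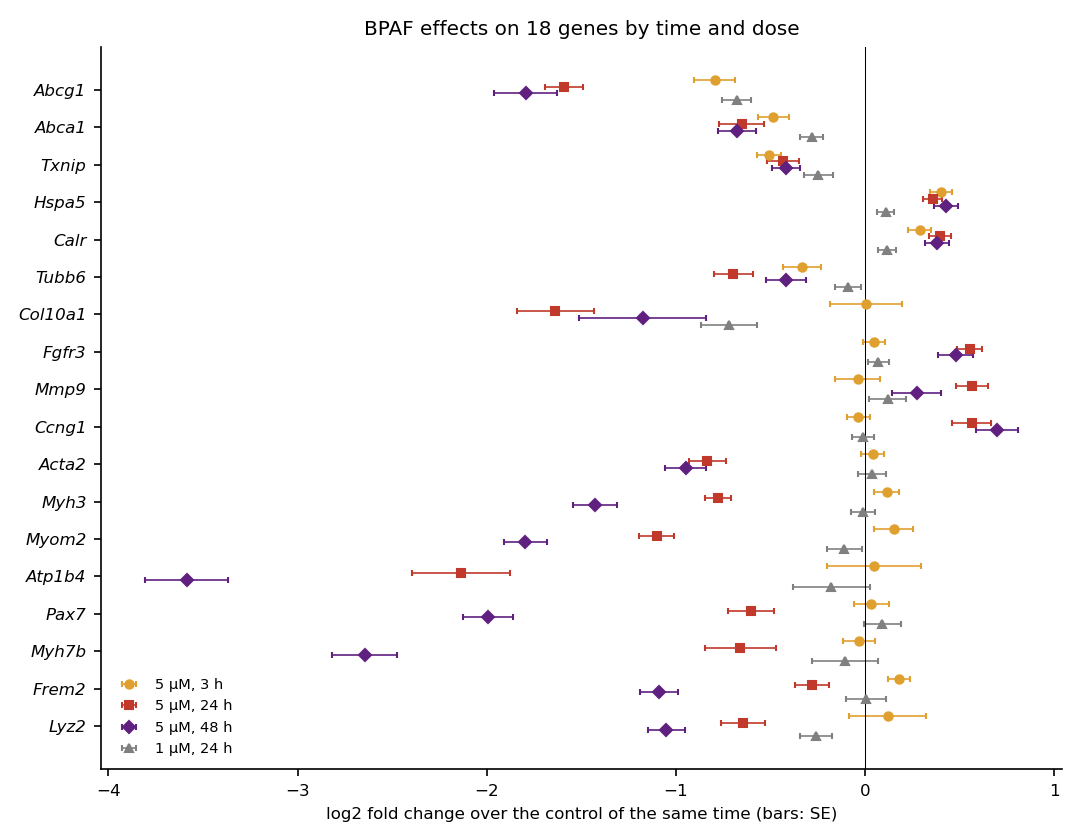
Log2 fold change over the control of the same time for 18 genes, with 5 µM BPAF at 3 h (circles), 24 h (squares) and 48 h (diamonds) and 1 µM at 24 h (triangles); bars are SE. Abcg1 and Hspa5 lie off 0 at all 3 times at 5 µM, whereas Myh3, Myom2 and Pax7 lie near 0 at 3 h and fall at 24 h and further at 48 h.

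At 1 µM BPAF for 24 h, compared with the same 5 control libraries, 1 of 16439 genes was called (0.00608%). That gene was Abcg1, at -0.68 ± 0.07 against -1.59 ± 0.10 at 5 µM (edgeR adjusted p = 0.00133 and 2.12e-06). Because the controls are shared, the values of the other genes are only set side by side. Col10a1 had -0.72 ± 0.15 at 1 µM and -1.64 ± 0.20 at 5 µM, Abca1 had -0.28 ± 0.06 and -0.65 ± 0.12, and Hspa5 had 0.11 ± 0.05 and 0.36 ± 0.05. The muscle genes Myh3 and Myom2 had -0.01 ± 0.06 and -0.11 ± 0.09 at 1 µM, against -0.78 ± 0.07 and -1.10 ± 0.09. Pax7 had 0.09 ± 0.10 at 1 µM. The sarcomere list had a median of -0.01 at 1 µM.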

How the data were processed

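Polyadenylated RNA of CD1 mouse forelimb cultures was sequenced. Per the submitters' processing notes, CASAVA 1.8, STAR 2.5, HTSeq 0.6.1 and DESeq2 version 2 were used with the mm10 build; how strand was counted is not given in the sources used here. Tables deposited by the authors hold read counts as whole numbers for each gene. The deposited signal columns equal the count divided by a size factor. FPKM, log2 fold changes and p-values were deposited too and were not used as input to a test. In the authors' deposited table, an adjusted p under 0.05 was listed for 513 genes, 199 higher and 314 lower. Symbols come from the files and a name table (35177 of 35212 identifiers).

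Counts were tested with edgeR 4.0.16 (R 4.3.3) by the quasi-likelihood F-test with TMM scaling, filterByExpr (minimum count 10, minimum total 15) and Benjamini-Hochberg adjustment, on the 10 libraries alone; 1 design for each pair of groups, and 4 group means for differences between times. The SE given with an edgeR log2 fold change is its absolute value divided by the square root of the quasi-likelihood F statistic. Members and lists were chosen with earlier results of these data known. Named genes are 10 fixed anchors, the 12 largest rises and falls at 2 CPM or more, the 8 smallest p in each direction, up to 6 called members a list with the smallest p (2 of the most abundant where none was called), and 6 per difference between times. Alternatives were DESeq2 1.42.0, limma-voom 3.58.1, other scaling, no filter, a replicate block, all 45 libraries, a Y-linked covariate (log2 of CPM plus 1) and left-out libraries. On simulated counts for the 24 h comparison of 16433 genes, 36%, 64%, 88% and 100% of 50 genes changed by 1.3, 1.5, 2 and 3-fold were called, and 13 of 157 calls were false. The counts were drawn for each gene independently, and changes were put only in genes at 2 CPM or more. Shifts that many genes of a library share were not simulated, so these rates need not hold for the real libraries. No library pair within a group agreed within sampling noise. Promoters are RefSeq's.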

Additional observations from a re-analysis of the deposited data

Results flagged for a closer look

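Of 304 sets of 5 libraries (gene levels and library measures), 25 held a library whose gap to the nearest other exceeded Dixon's 95% critical value of 0.71, which is 8.22%, where chance gives about 1 in 20. In the controls, replicate 5 was low for Srl (121 CPM), Mmp12 (0.171), Tfrc (80.8) and Frem2 (48.6) and high in haemoglobin reads (0.251%). Control replicate 1 was low for Fabp3 (13.1 CPM) and high for Smpd3 (62.4), and replicate 2 was high for Heyl (17.3) and Ucma (2.08). Control replicate 3 was high for Hspb1 (45.3 CPM) and Cyp1b1 (33.3) and low for Runx2 (52.6), and replicate 4 was low for Spry1 (43.4) and high for Tuba4a (16.6).

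With BPAF, replicate 5 was high for Tubb6 (104.8 CPM), Pgam2 (29.7), Pycr1 (67.0), Atp5a1 (835) and Atp5b (833), and low for Frem2 (47.3). BPAF replicate 1 was high for Mmp13 (2.51 CPM), replicate 2 for Scml4 (8.36) and replicate 3 for Omd (10.3). Replicate 4 was low for Tceal7 (3.70 CPM) and high for Ucma (0.606).

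The effect of 5 µM BPAF differed between 24 h and 3 h by edgeR's interaction test for Myom2 (-1.24), Myh3 (-0.88), Myom1 (-1.10), Gatm (-0.65), Acta2 (-0.86) and Ablim3 (-0.73), given as differences of log2 fold changes. It differed between 48 h and 24 h for Pax7 (-1.38), Myh7b (-1.97), Tmod1 (-1.07), Xirp1 (-1.28), Rgs5 (-1.26) and Frem2 (-0.80).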

How the results depend on the processing

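For 24 h, 258 calls became 260 with DESeq2 size factors, 273 without a filter and 251 with limma-voom. They became 556 with DESeq2's Wald test, 587 with all 45 libraries, 434 with the Y-linked covariate, 514 without replicate 5 of both groups and, chosen after seeing the data, 64 without control replicates 2 and 3. Without single libraries the range was 109 to 500: 128, 132, 131, 148 and 257 without control replicates 1 to 5, and 109, 133, 161, 201 and 500 without BPAF replicates 1 to 5. Totals of like size did not hold all the same genes. Of the 258, 252 (97.7%) were kept with DESeq2 size factors, 242 (93.8%) with limma-voom and 226 (87.6%) without a filter. The Y-linked covariate kept 217 (84.1%), and the fit without control replicate 5 kept 206 (79.8%). None of the 108 named called genes reversed in direction. Genes not called and near 0 changed sign in some alternatives, among them Acan (-0.04 to 0.08), Ihh (-0.13 to 0.10) and Pitx1 (-0.04 to 0.45), and the glycolysis median did so without both replicates 5. Of 108 named called genes, 36 lost their call in none of the alternatives that tested them, of 21 run, and 49 lost it in 6 or more. A replicate block gave 655 calls, 250 higher and 405 lower, which include all 258; it called members in 10 of the 15 lists without a call, among them 5 of epidermis, 4 each of tendon and NRF2, and 3 each of limb patterning, cholesterol synthesis and glycolysis. Same-numbered libraries of the 2 groups correlated at 0.0285 or more in their deviations from group means at 2 CPM. The lowest value was 0.143 at 5 CPM and 0.189 at 10 CPM. At 2 CPM the median was 0.249 for the same number and -0.071 for other numbers. Every pair passed 0.1 at 5 and 10 CPM, but not every pair did at 2 CPM. For that reason the numbers were not taken as pairs, a choice settled with the counts of both fits known. At 2 CPM 4 of 5 libraries correlated best with their own number, and at 10 CPM 5 of 5.

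The difference between 24 h and 3 h (59) became 161 with DESeq2 and 149 with the block, 30 to 109 without single libraries; that between 48 h and 24 h (12) became 23 without a filter, 60 with DESeq2, 50 with the block, 2 to 17 without single libraries. At 3 h 30 became 74 without a filter, 133 with DESeq2, 62 with the block and 15 to 45 without single libraries; at 1 µM 1 became 3, 2 and 2 with no filter, DESeq2 and the block, and stayed at 1 without any single library. At 48 h 1171 became 912 to 1153 without single libraries. The share of 24 h calls also called at 48 h was, for higher genes, 58.4% with all libraries, 55.0% with the covariate, 62.5% without both replicates 5, and 57.6% to 82.8% without single libraries. For lower genes it was 75.8% with DESeq2, 77.3% with the block, 74.4%, 72.4% and 76.9% under the same 3 settings, and 75.3% to 95.9%. The cause was not tested. Depth limits genes near 1 CPM such as Ucma and Mmp13.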

Other observations

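Genes outside the lists, picked after their values were seen, were among the calls as well. The mitochondrial ribosomal RNAs rose, mt-Rnr1 from 423 ± 68.9 to 718 ± 65.0 CPM (SD, n = 5 each; log2 fold change 0.76 ± 0.10, SE, edgeR adjusted p = 0.00111) and mt-Rnr2 from 519 ± 76.7 to 764 ± 82.5 CPM (0.56 ± 0.10, edgeR adjusted p = 0.0096). Both groups were apart for each, and at 48 h the log2 values were 0.82 and 0.60. The libraries were made from polyadenylated RNA, so these reads sample only part of such RNAs. Without genes of the mitochondrial chromosome, an alternative chosen after seeing the data, 253 genes were called.

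Also picked after their values were seen were 3 single genes that rose: Serpinh1, the collagen chaperone, by 0.33 ± 0.08, Rpn1, a subunit of the glycosylation complex, by 0.33 ± 0.07, and Kdelr2, which returns chaperones to the ER, by 0.24 ± 0.06 (edgeR adjusted p = 0.0419, 0.0191 and 0.0419). Of the genes picked in this way, 3 fell: the sarcomere-building methyltransferase Smyd1 by -0.58 ± 0.07, Apobec2 by -0.95 ± 0.13 and myotilin (Myot) by -0.86 ± 0.16 (edgeR adjusted p = 8.91e-04, 0.0019 and 0.0141).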
